A study of Mus musculus with 8 samples.

Results

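Krüppel-like factors are transcription factors that bind DNA through zinc fingers, and 10 of them were followed here in glomeruli from mouse kidneys: Klf2, Klf3, Klf4, Klf5, Klf6, Klf7, Klf9, Klf10, Klf13 and Klf15. For each symbol, the brightest probe set on average over the 8 arrays was taken from those annotated with a single gene symbol, and 10 of 10 listed factors were found among 22180 genes. The choice of probe set used no difference between groups. The 8 arrays form 3 groups of mice, all aged 13 weeks and all given doxycycline for 3 weeks from 8 weeks of age. Mice of the genotype Tln1 Pod-rtTA TetO-Cre were then treated for 2 weeks with vehicle (Tln1 vehicle, 3 arrays) or with valproic acid, a histone deacetylase inhibitor (Tln1 VPA, 3 arrays). The genotype named control (2 arrays) is not described further, and whether those mice had vehicle is not stated. By its name, the line makes Cre through a transactivator active in podocytes, the filtration epithelium, so that talin 1, which links integrins to actin, is targeted there and not in the other cells of the isolate. Nothing in the labels says that each array is another animal, so the p-values reflect spread among these samples alone, and that spread may be technical. Values are log2 expression, on which 1 unit is a doubling of signal, and each factor is compared only with itself because probe sets differ in brightness.

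The family binds GC-rich and CACCC sequences, and its members differ in the partners they recruit. Klf3 recruits the corepressor CtBP, while Klf9, Klf10 and Klf13 recruit Sin3A and with it histone deacetylases. Klf2 and Klf4 are induced in endothelium by laminar flow through the kinases MEK5 and ERK5 and the factor MEF2, and they keep endothelium anti-inflammatory. In podocytes Klf4, Klf6 and Klf15 are known as protective factors, and Klf9 and Klf15 are targets of the glucocorticoid receptor. Klf2, Klf4, Klf6 and Klf10 can also respond within an hour to a stimulus, as immediate early genes do.

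A RefSeq promoter table (build GRCm38.p6) held 8 of the 10 members. The 250 bases before the start are shown for Klf15, whose arrays parted by genotype, and for Klf2, Klf4, Klf6 and Klf9, which are compared below between sets of arrays. Capitals mark matches on either strand to the E-box CACGTG, the MEF2 site or TGANTCA, and the marked matches do not overlap one another. TGANTCA is a looser form of the AP-1 site, with any base allowed in the middle. Every window shown held such a match. The windows of Klf3, Klf7 and Klf13 held none and are not shown, although Klf7 and Klf13 are also compared between the sets. The windows are chr6:90462326-90462575 (plus strand) for Klf15, chr8:72318812-72319061 (plus) for Klf2, chr4:55532476-55532725 (minus) for Klf4, chr13:5861239-5861488 (plus) for Klf6 and chr19:23140976-23141225 (plus) for Klf9, each printed 5′ to 3′ on the gene's strand.
Klf15: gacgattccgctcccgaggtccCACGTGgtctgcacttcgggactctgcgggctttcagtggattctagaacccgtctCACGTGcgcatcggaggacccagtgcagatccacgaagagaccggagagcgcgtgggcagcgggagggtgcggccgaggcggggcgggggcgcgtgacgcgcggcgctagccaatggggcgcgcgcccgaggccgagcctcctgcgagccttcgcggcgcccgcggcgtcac
Klf2: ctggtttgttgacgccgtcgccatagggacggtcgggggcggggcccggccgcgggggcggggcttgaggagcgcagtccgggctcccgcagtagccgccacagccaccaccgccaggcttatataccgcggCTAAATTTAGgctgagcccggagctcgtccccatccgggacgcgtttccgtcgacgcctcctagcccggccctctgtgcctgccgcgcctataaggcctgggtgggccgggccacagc
Klf4: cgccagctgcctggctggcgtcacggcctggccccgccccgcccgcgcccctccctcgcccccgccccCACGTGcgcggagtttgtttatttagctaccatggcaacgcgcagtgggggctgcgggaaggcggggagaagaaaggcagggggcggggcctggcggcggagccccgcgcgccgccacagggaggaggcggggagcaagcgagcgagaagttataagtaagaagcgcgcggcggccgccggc
Klf6: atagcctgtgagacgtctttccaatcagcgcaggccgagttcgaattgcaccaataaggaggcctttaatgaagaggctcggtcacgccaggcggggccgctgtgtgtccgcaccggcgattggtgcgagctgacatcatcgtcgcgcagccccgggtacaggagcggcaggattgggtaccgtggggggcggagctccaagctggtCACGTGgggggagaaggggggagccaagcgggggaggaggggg
Klf9: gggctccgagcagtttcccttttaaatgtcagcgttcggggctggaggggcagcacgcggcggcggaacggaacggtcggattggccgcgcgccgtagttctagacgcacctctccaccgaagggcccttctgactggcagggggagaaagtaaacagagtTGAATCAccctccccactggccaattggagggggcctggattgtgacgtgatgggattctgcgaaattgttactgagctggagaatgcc

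Klf15 held 2 E-boxes, a sequence that CLOCK and BMAL1 of the circadian clock can bind, and Klf4 and Klf6 held 1 each. An E-box was in 3 of 8 member windows and in 6.02% of 32851 windows of the same length. The MEF2 site of Klf2 ended 109 bases before the start, and such a site was in 1 of 8 member windows and 0.508% of all. The TGANTCA match of Klf9, TGAATCA, began 89 bases before the start. TGANTCA with any middle base was in 1 of 8 member windows and 6.75% of all, and these are not all AP-1 sites. GGGCGG, a GC box that Sp and Klf proteins bind, was in 7 of 8 member windows (32.7% of all), and CACCC in 6 of 8 (52.0% of all). AGAACA, a part of the glucocorticoid receptor's binding site, was in 0 of 8 (16.1% of all). These are matches of letters and were not tied to binding.

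The arrays divided across the groups as well as between them. Clustering over all genes placed control 1, Tln1 vehicle 1 and 2 and Tln1 VPA 1 and 2 in a first set, and control 2, Tln1 vehicle 3 and Tln1 VPA 3 in a second, a division that is not in the labels. The 6 measured podocyte markers (of 8) averaged 7.09 to 7.88 on first-set arrays and 8.56 to 9.21 on second-set arrays. Those of proximal tubule (8 of 8) ran the other way, averaging 11.75 to 12.06 and 10.84 to 11.36. The mean of 3 Y-linked genes was at least 4.85 on first-set arrays of the Tln1 groups, 3.57 on control 1 and at most 2.72 on second-set arrays. The X-linked Xist read 9.71 and 10.67 in control, 9.66, 7.38 and 10.94 under vehicle and 10.14, 9.97 and 10.47 under VPA. In the first set the Y-linked mean thus differed between control and the Tln1 groups, so a covariate made from it partly follows the groups. No sex is given for the arrays, and its part in differences from control was not tested. Whether single markers lay above background is not known here. Tln1 stood at 8.97 and 8.64 on the control arrays, 8.95, 8.95 and 8.60 under vehicle and 8.76, 8.88 and 8.59 under VPA, with overlapping groups, in whole glomeruli in which other cells also make it.

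No factor passed the test in any comparison. In a limma fit over all 22180 genes, 0 of 10 had an adjusted p below 0.05 in Tln1 vehicle against control (background 0.0% of all genes), 0 of 10 in Tln1 VPA against Tln1 vehicle (0.0%) and 0 of 10 in Tln1 VPA against control (0.0%). Klf15 was lower on every Tln1 array than on both control arrays. Klf10 was higher on every Tln1 VPA array than on both control arrays. The groups overlapped for the other 8 factors in all 3 comparisons.

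**Figure D1:**
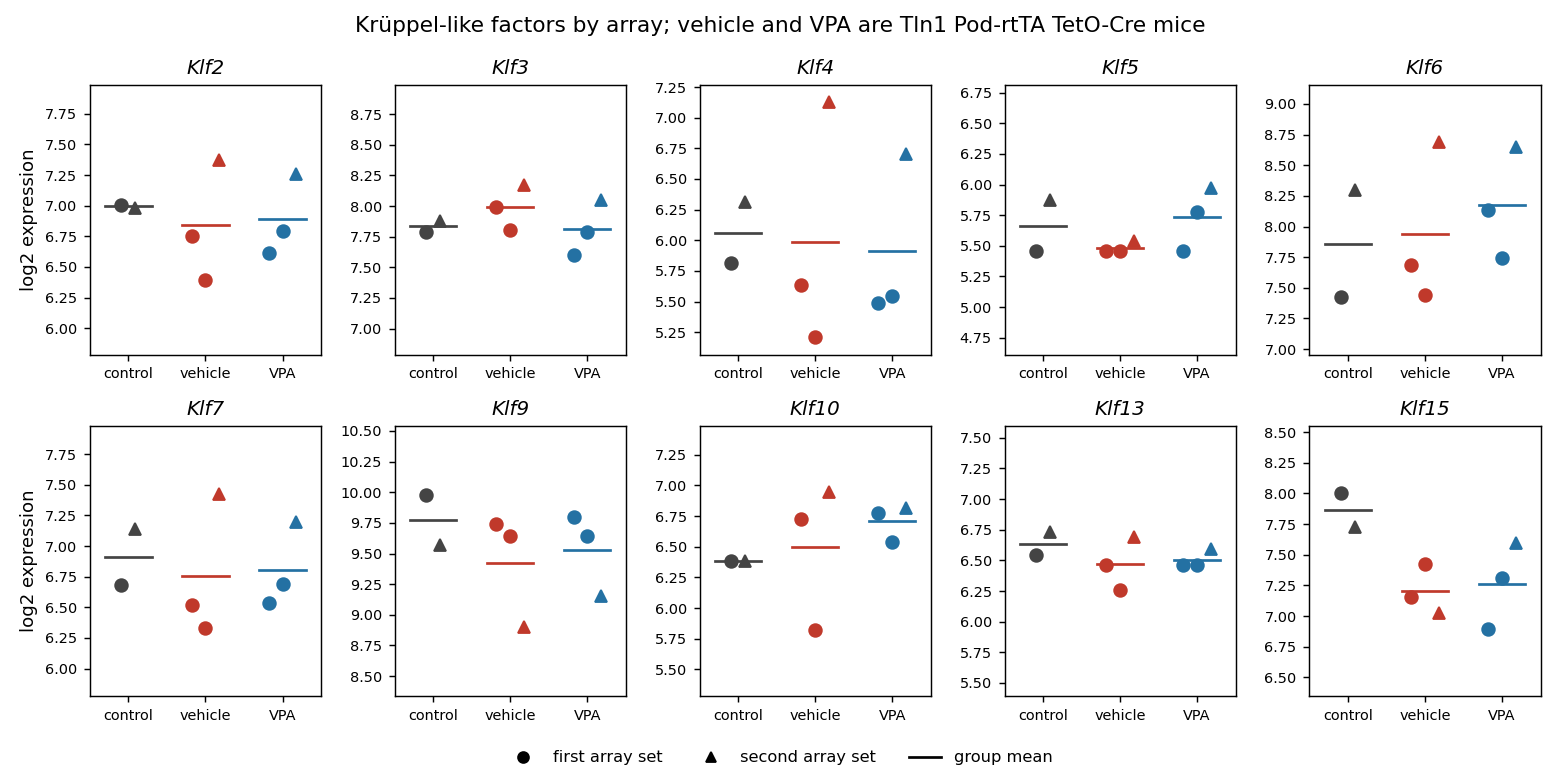
Log2 expression of the 10 factors on each of 8 arrays, by group; circles are arrays of the first set, triangles arrays of the second and horizontal lines group means, and all panels span the same height. Klf15 lies at 8.00 and 7.72 in control and at 6.89 to 7.59 on the Tln1 arrays, while for Klf4, Klf6 and Klf7 all triangles lie above all circles.

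Klf15, which promotes podocyte differentiation and governs amino acid and lipid use in metabolic tissues, read 8.00 and 7.72 on the control arrays, 7.16, 7.42 and 7.03 under vehicle and 6.89, 7.31 and 7.59 under VPA. Both controls were above all 6 other arrays, and the vehicle and VPA arrays overlapped. Group means were 7.86 ± 0.20, 7.20 ± 0.20 and 7.26 ± 0.35 (SD, n = 2, 3 and 3). Tln1 vehicle differed from control by -0.66 (SE 0.23, 95% interval -1.19 to -0.14), a signal at 63.2% of control, with an adjusted p of 1.00 by limma. The difference was -0.71 among first-set arrays and -0.70 among second-set arrays. Tln1 VPA against control, which uses the same control arrays, gave -0.60, SE 0.23 (66.0% of control, adjusted p = 1.00 by limma), with -0.90 among first-set and -0.13 among second-set arrays.

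Klf9, a repressor whose gene responds to glucocorticoids and thyroid hormone, read 9.98 and 9.57 on the control arrays, 9.74, 9.64 and 8.90 under vehicle and 9.80, 9.65 and 9.15 under VPA. The second-set array was the lowest of each group, and the groups overlapped, with means of 9.77 ± 0.29, 9.43 ± 0.46 and 9.53 ± 0.34. Within the sets, vehicle minus control was -0.29 and -0.67, and VPA minus control was -0.26 and -0.42. Blocking on array set gave -0.45, SE 0.11, adjusted p = 0.475 by limma, for vehicle against control and -0.34, SE 0.11, adjusted p = 0.484 by limma, for VPA against control, and neither passed. With the Y-linked genes as a covariate the values were -0.74, SE 0.18, and -0.49, SE 0.17. Klf13, a relative of Klf9 that activates the chemokine gene Ccl5 in T cells, varied least of the 10, by 0.47 over all arrays. It read 6.54 and 6.73 on the control arrays, 6.46, 6.26 and 6.69 under vehicle and 6.46, 6.46 and 6.59 under VPA, with overlapping groups.

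Some of these levels are tied. Klf13 carried an identical value on 3 arrays, Klf5 on 4 and Klf3 on 2. Over all genes, 46.0% had an identical value on at least 2 arrays, 14.9% on at least 3 and 2.43% on at least 4. Ties on 2 arrays are thus common in the deposited values, whereas few genes had a tie on 4 as Klf5 did. The tied value of Klf5, 5.45, was its lowest and was read on control 1, Tln1 vehicle 1 and 2 and Tln1 VPA 1.

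Klf2, the flow-induced factor of endothelium, read 7.01 and 6.98 on the control arrays, 6.75, 6.40 and 7.37 under vehicle and 6.61, 6.80 and 7.26 under VPA. The controls lay inside the range of both Tln1 groups, with first-set Tln1 arrays below them and second-set ones above. Klf4, which acts in the same endothelial pathway and maintains nephrin in podocytes, read 5.81 and 6.31 on the control arrays, 5.63, 5.21 and 7.13 under vehicle and 5.49, 5.54 and 6.71 under VPA. It had the widest range of the 10 factors, 1.92, and its group means of 6.06 ± 0.35, 5.99 ± 1.01 and 5.91 ± 0.69 differed by less than the spread within groups. Within the first and the second set, vehicle minus control was -0.43 and 0.39 for Klf2 and -0.39 and 0.81 for Klf4, opposite in sign for both. Blocking on array set gave -0.07, SE 0.20, for Klf2 and 0.12, SE 0.26, for Klf4 in vehicle against control. With the Y-linked covariate vehicle against control was 0.24 for Klf2 and 0.80 (SE 0.18, adjusted p = 0.221 by limma) for Klf4. The replicate block gave -0.42 and -0.64, but it leaves out Tln1 vehicle 3 and matches control 2 with a first-set array. The direction of neither factor was settled.

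Klf6, an injury-induced factor that supports mitochondria in podocytes, read 7.42 and 8.29 on the control arrays, 7.69, 7.44 and 8.69 under vehicle and 8.13, 7.74 and 8.65 under VPA. Every second-set array was above every first-set array, and the groups overlapped. Within the first and the second set, VPA minus control was 0.51 and 0.35. Blocking on array set gave 0.47, SE 0.16, adjusted p = 0.532 by limma, against 0.31, SE 0.44 without it. The Y-linked covariate gave 0.70, SE 0.19, adjusted p = 0.338 by limma. The replicate block, which leaves out Tln1 VPA 3, gave 0.08, SE 0.26. Klf7, a relative of Klf6 known from neurons, read 6.68 and 7.14 on the control arrays, 6.52, 6.33 and 7.43 under vehicle and 6.53, 6.69 and 7.20 under VPA, again with all second-set arrays on top. It was the only member with another probe set, of mean 2.97, which was not used.

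Klf10, an early target of TGF-beta, read 6.38 and 6.38 on the control arrays, 6.72, 5.82 and 6.95 under vehicle and 6.78, 6.54 and 6.82 under VPA. All VPA arrays were above both controls, and Tln1 vehicle 2 was the lowest of all arrays. Tln1 VPA against control gave 0.33, SE 0.31 (95% interval -0.38 to 1.04, 0.27 and 0.43 within the sets, adjusted p = 1.00 by limma), and 0.54 with the Y-linked genes as a covariate. The interval includes 0, although the arrays did not overlap.

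Klf3, the CtBP-dependent repressor, read 7.79 and 7.88 on the control arrays, 7.99, 7.80 and 8.17 under vehicle and 7.60, 7.79 and 8.05 under VPA. Klf5, a factor of proliferating epithelium that the kidney makes mainly in the collecting duct, read 5.45 and 5.88 on the control arrays, 5.45, 5.45 and 5.54 under vehicle and 5.45, 5.78 and 5.97 under VPA. Groups overlapped for both. Distal tubule and collecting duct markers (8 of 8 measured) averaged between 10.19 and 10.94 over the arrays, and their part in the Klf5 levels was not tested.

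Tln1 vehicle against control asks what differs when talin 1 is targeted in podocytes. Of the 10 factors 3 were higher and 7 lower, with a median change of -0.15 beside 0.02 over all genes. In the second set, with single arrays, Klf2, Klf3, Klf4, Klf6, Klf7 and Klf10 were higher and Klf5, Klf9, Klf13 and Klf15 lower. Arrays without overlap were seen on the lower side for 1 of 10, Klf15 (background 3.59% of all genes), and on the higher side for 0 of 10 (4.78%). An unadjusted p below 0.05 was met by 1 of 10, again Klf15 (1.45% of all genes). The other 9 changes lay between -0.35 and 0.15, with 95% intervals reaching from -1.45 to 1.30. Mesangial and smooth muscle markers (7 of 8 measured) averaged 6.76 to 6.96 in control and 7.21 to 7.61 in vehicle arrays, 7 of 7 being higher. Podocyte markers were higher for 2 of 6 genes, averaging 7.13 to 9.21 in control and 7.63 to 8.87 in vehicle arrays. Glomerular endothelium had 6 of 8 higher and proximal tubule 2 of 8. Distal tubule and collecting duct had 4 of 8 higher and macrophages 3 of 8. The part of these markers in the Klf15 value was not tested. In such isolates, fewer cells of a type and less RNA per cell cannot be told apart.

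Tln1 VPA against Tln1 vehicle asks what valproic acid changed within the line. No factor had arrays without overlap (0 of 10 higher beside 1.98% of all genes, 0 of 10 lower beside 1.57%), and 0 of 10 had an unadjusted p below 0.05 (1.26% of all genes). Of the factors 8 were higher and 2 lower, with a median of 0.06 beside 0.00 over all genes. In the second set, Klf2, Klf3, Klf4, Klf6, Klf7, Klf10 and Klf13 were lower and Klf5, Klf9 and Klf15 higher. That set holds a single array per group. The lowest change was that of Klf3 and the highest, 0.25, that of Klf5, and 95% intervals reached from -1.31 to 1.15. Macrophage markers were higher for 8 of 8 genes, averaging 4.73 to 5.40 under vehicle and 4.94 to 5.96 under VPA. The other markers were mostly lower under VPA, with 0 of 6 of podocytes higher, 1 of 8 of glomerular endothelium, 1 of 7 of mesangial and smooth muscle cells, 1 of 8 of proximal tubule and 1 of 8 of distal tubule and collecting duct. The part of these shifts in the factors' values was not tested.

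Tln1 VPA against control shares its control arrays with the first comparison and is not independent of it. Here 3 factors were higher and 7 lower, with a median of -0.11 beside 0.02. In the second set, with single arrays, Klf2, Klf3, Klf4, Klf5, Klf6, Klf7 and Klf10 were higher and Klf9, Klf13 and Klf15 lower. Arrays without overlap belonged to Klf15 on the lower side (1 of 10, background 3.98%) and to Klf10 on the higher (1 of 10, background 5.57%). Klf15 was the 1 of 10 with an unadjusted p below 0.05 (1.87% of all genes). Each of these counts rests on 1 gene. Markers moved here too: 0 of 6 of podocytes were higher, 1 of 8 of glomerular endothelium, 1 of 8 of proximal tubule, 3 of 8 of distal tubule and collecting duct, 6 of 7 of mesangial and smooth muscle cells and 7 of 8 of macrophages. Averages under VPA and in control were 7.09 to 8.56 and 7.13 to 9.21 for podocytes, 7.13 to 7.23 and 6.76 to 6.96 for mesangial and smooth muscle cells, and 4.94 to 5.96 and 5.09 to 5.10 for macrophages. Their part in the values of Klf15 and Klf10 was not tested.

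**Figure D2:**
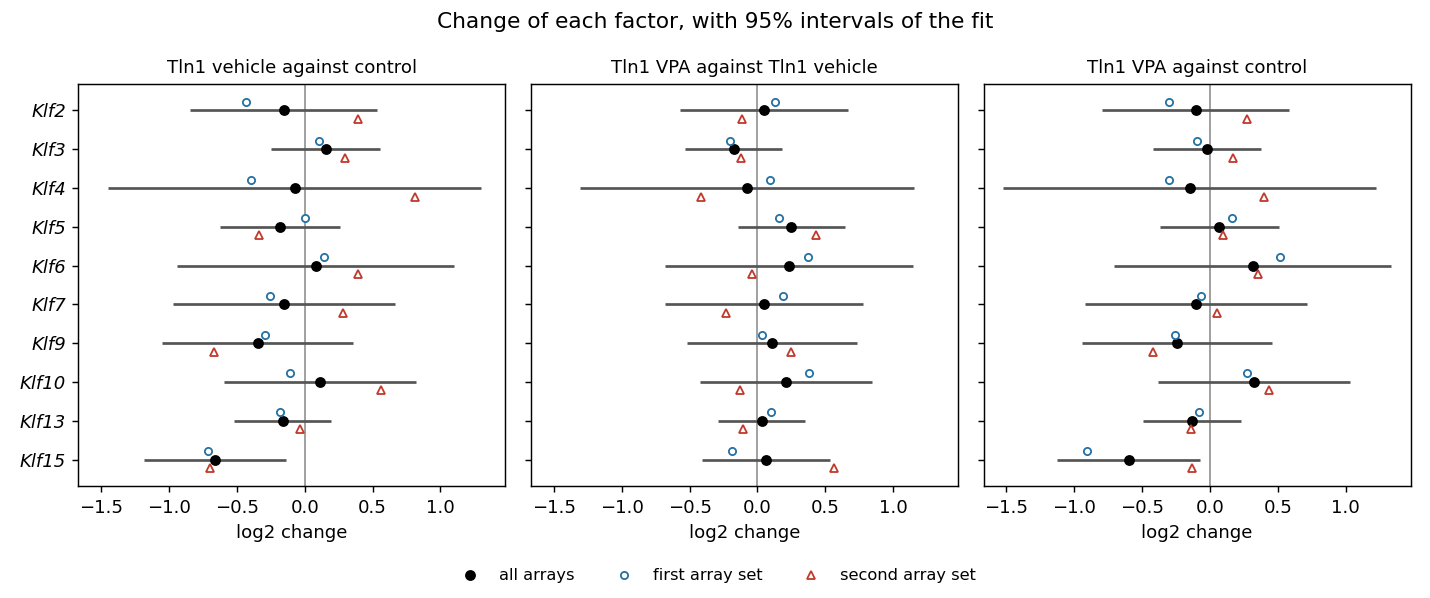
Log2 change of each factor in the 3 comparisons, with the fit over all arrays (filled points, 95% intervals) and the differences within the first (open circles) and second array set (open triangles). The intervals of Klf15 stay below 0 in both comparisons with control, at -1.19 to -0.14 and -1.12 to -0.07.

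For every factor except Klf10 and Klf15, the means of the array sets differed by more than those of any groups. The set differences were largest for Klf4, Klf6, Klf7 and Klf9. Klf4 was 1.18 higher on second-set arrays, Klf6 0.86 and Klf7 0.70, whereas Klf9 was at -0.55. The sets were found from these same arrays, so this is a description with no test. Taking each group alone, from control to VPA, Klf4 differed by 0.50, 1.70 and 1.19, Klf6 by 0.87, 1.12 and 0.71, and Klf9 by -0.41, -0.79 and -0.57. Klf2 did not keep 1 direction, at -0.03, 0.80 and 0.55. Every second-set array was above every first-set array for 4 of 10 factors (Klf4, Klf6, Klf7 and Klf13), beside 13.2% of all genes, and below for 1 of 10 (Klf9), beside 36.6%. In total 9 of 10 factors were higher in the second set, where the median gene was at -0.14.

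Scaling altered part of this pattern. After median centring, 6 of 10 factors lay wholly above, with Klf2 and Klf3 added (20.3% of all genes), and Klf9 overlapped at -0.44 (25.2% of all genes lay wholly below). Quantile normalisation likewise gave 6 factors above (21.4% of all genes) and -0.30 for Klf9, which under that scaling had all vehicle arrays below both controls. Beside these values, 6 of 6 podocyte markers, 7 of 8 distal tubule and collecting duct markers, 7 of 8 macrophage markers and 12 of 14 immediate early genes were higher in the second set, and 0 of 8 proximal tubule markers, 3 of 8 of glomerular endothelium and 3 of 7 of mesangial and smooth muscle cells were. Their part in the levels of Klf4, Klf6, Klf7 and Klf9 was not tested.

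**Figure D3:**
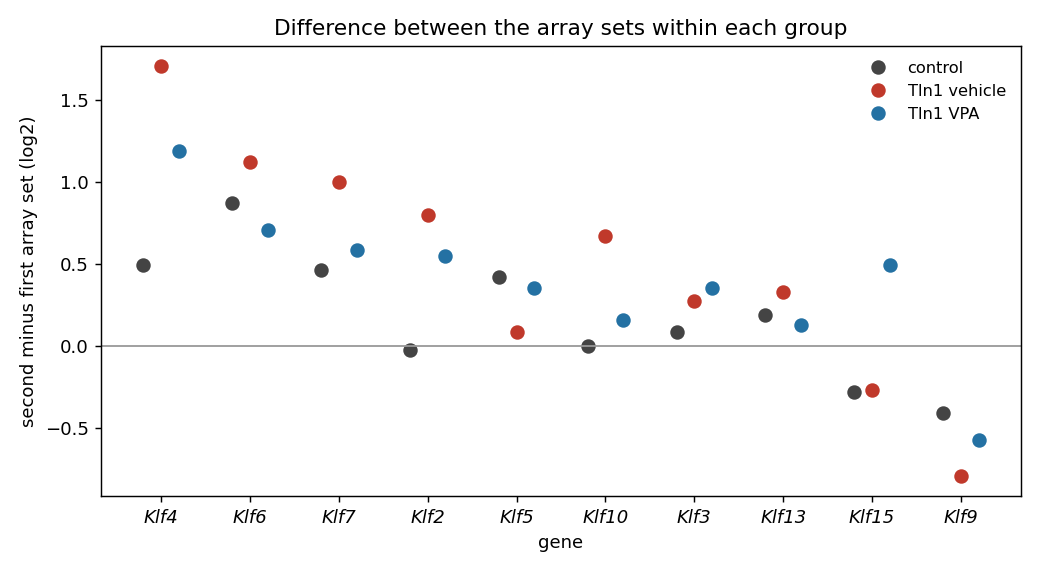
Second minus first array set (log2) for each factor within control, Tln1 vehicle and Tln1 VPA, ordered by the difference over all arrays. Klf4 lies between 0.50 and 1.70 and Klf9 between -0.79 and -0.41, while Klf15 lies at -0.28, -0.26 and 0.49.

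Of 16 further Klf and Sp relatives, 15 were measured (Sp2 is not analysed here), and 0 of 15 were called in any comparison. In Tln1 vehicle against control 9 higher and 6 lower gave a median of 0.02. Klf16 (-0.20, SE 0.12), Sp6 (-0.21, SE 0.14, -0.12 without control 1, -0.12 without Tln1 vehicle 2) and Klf1 (-0.10, SE 0.11) had all vehicle arrays below control. These are 3 of 15 (background 3.59% of all genes), with 0 of 15 on the higher side (4.78%). Sp6 read 4.15 and 3.97 in control and 3.92, 3.67 and 3.95 under vehicle. Klf1 read 3.78 and 3.83, then 3.65, 3.74 and 3.72. Both were low beside array medians of 4.14 to 4.29. In Tln1 VPA against Tln1 vehicle 4 higher and 11 lower gave a median of -0.07. Klf12, a repressor that binds CtBP, read 7.26 and 7.27 on the control arrays, 7.25, 7.33 and 7.48 under vehicle and 6.84, 7.20 and 7.05 under VPA. All its VPA arrays lay below all others, with -0.32, SE 0.13, and an adjusted p of 1.00 by limma. Against control, where VPA arrays had 2 higher and 13 lower (median -0.14), the values were -0.23, SE 0.14 for Klf12 (-0.14 without Tln1 VPA 1), -0.15, SE 0.12 for Klf16 (-0.09 in the first set alone) and -0.14, SE 0.11 for Klf1 (-0.09 without Tln1 VPA 2). Klf11, the closest relative of Klf10, was at 0.11, SE 0.15 there (0.07 after median centring).

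All 15 partners and upstream regulators were measured, among them CtBP and Sin3 genes, the ERK5 pathway and the glucocorticoid receptor gene, and 0 of 15 were called. Their medians were 0.06, 0.01 and 0.07 in the 3 comparisons, with 9, 8 and 11 genes higher. Srf, a driver of immediate early and actin genes, read 7.23 and 7.28 in control and 6.93, 6.98 and 7.15 under vehicle (-0.24, SE 0.15, -0.09 with the Y-linked covariate). Map2k5, the gene of MEK5, differed by 0.11, SE 0.12 (0.06 without control 1, 0.06 without Tln1 vehicle 2).

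Among 9 genes that respond to KLF2 and KLF4 in endothelium, 0 were called. The list mixes induced and repressed genes, so its counts and medians do not measure the activity of these factors. Tln1 vehicle against control had 4 higher and 5 lower (median -0.03), Tln1 VPA against Tln1 vehicle 7 higher and 2 lower (0.20) and Tln1 VPA against control 6 higher and 3 lower (0.10). Vcam1, a leukocyte adhesion molecule that Klf2 represses, read 6.31 and 6.06 on the control arrays and 6.14, 5.65 and 6.68 under vehicle, and its lowest and highest VPA arrays read 6.99 and 7.54. Its VPA arrays lay above all others, by 1.02, SE 0.27 over vehicle and 0.99, SE 0.31 over control, with adjusted p of 1.00 and 1.00 by limma.

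Of 12 genes tied to single factors 11 were measured (Sco2 is not analysed here) and 0 were called, with medians of -0.13, 0.00 and -0.18. This list too mixes induced and repressed genes. Cdkn1a, the cell cycle inhibitor p21 that Klf4 and Klf6 induce, read 8.18 and 8.00 in control and 7.46, 6.59 and 7.74 under vehicle (-0.83, SE 0.37, -0.49 without Tln1 vehicle 2). Ccl5, the target of Klf13, read 5.20, 5.04 and 5.49 under vehicle and 5.80, 5.62 and 7.20 under VPA (0.97, SE 0.39, 0.47 without Tln1 VPA 3). Against control Ccl5 was at 0.91, SE 0.43 (0.42 without Tln1 VPA 3). Smad7, a TGF-beta antagonist that Klf10 represses, was at -0.13, SE 0.15 in that comparison (-0.04 with the Y-linked covariate).

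Glucocorticoid response genes, a class to which Klf9 and Klf15 belong, had 2 higher and 7 lower in Tln1 vehicle against control (median -0.20), 7 higher and 2 lower in Tln1 VPA against Tln1 vehicle (0.15) and 3 higher and 6 lower in Tln1 VPA against control (-0.26), with 0 of 9 called in each. Zbtb16, a sensitive glucocorticoid target that encodes PLZF, read 7.69 and 8.10 on the control arrays, 6.57, 5.47 and 6.49 under vehicle and 7.02, 7.31 and 8.25 under VPA. The vehicle arrays were below all others, with a change of -1.71, SE 0.44 against control, and VPA lay above vehicle by 1.35, SE 0.39, with adjusted p of 1.00 and 1.00 by limma. Tsc22d3, the mediator GILZ, was at -0.69, SE 0.25 against control (-0.34 without control 2). Ddit4, an inhibitor of mTOR signalling, was at 0.22, SE 0.14 under vehicle (0.14 without control 2, 0.13 without Tln1 vehicle 3) and 0.21, SE 0.14 under VPA (0.13 without control 2). Cebpd, an acute phase factor, read 4.21 and 4.15 on the control arrays, 4.59, 4.58 and 3.97 under vehicle and 5.03, 5.11 and 4.89 under VPA, with VPA above vehicle by 0.63, SE 0.18 and above control by 0.83, SE 0.20. Between VPA and vehicle, Klf15 was at -0.19 within the first array set and 0.57 within the second, opposite in sign.

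Immediate early genes, a class that Klf2, Klf4, Klf6 and Klf10 share in part, had 12 higher and 2 lower in Tln1 vehicle against control (median 0.54), 2 higher and 12 lower in Tln1 VPA against Tln1 vehicle (-0.33) and 12 higher and 2 lower in Tln1 VPA against control (0.17), with 0 of 14 called in each. Egr1, a zinc finger factor induced by growth signals, read 5.96 and 6.44 on the control arrays, 7.91, 7.92 and 8.21 under vehicle and 6.86, 7.20 and 6.56 under VPA, and its vehicle arrays were above all others. Its changes in the 3 comparisons were 1.81, SE 0.23, then -1.14, SE 0.20, then 0.67, SE 0.23 (0.43 without control 1). In Tln1 vehicle against control the AP-1 gene Junb differed by 0.84, SE 0.28 (0.53 without Tln1 vehicle 3). Zfp36, a destabiliser of cytokine transcripts, differed by 0.47, SE 0.21 (0.24 without control 1). Under VPA the AP-1 genes Fosb (-1.13, SE 0.36, -0.69 without Tln1 vehicle 3) and Fos (-1.42, SE 0.70, -0.80 without Tln1 vehicle 3) and Zfp36 (-0.39, SE 0.19, -0.25 without Tln1 vehicle 3) lay below vehicle on every array. Against control, VPA arrays were higher for Ier3 (0.81, SE 0.44, 0.22 without control 1, 1.40 without control 2), Atf3 (0.64, SE 0.35) and Junb (0.41, SE 0.28). In Tln1 vehicle against control, Klf2, Klf4, Klf6 and Klf10 differed by -0.15, -0.07, 0.08 and 0.11. Blocking on array set gave -0.07, 0.12, 0.23 and 0.16, with SE of 0.20, 0.26, 0.16 and 0.28. With the Y-linked covariate the same factors were at 0.24, 0.80, 0.69 and 0.45. The replicate block, which leaves out Tln1 vehicle 3 and matches control 2 with a first-set array, gave -0.42, -0.64, -0.29 and -0.11. No direction beside that list can be given.

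**Figure D4:**
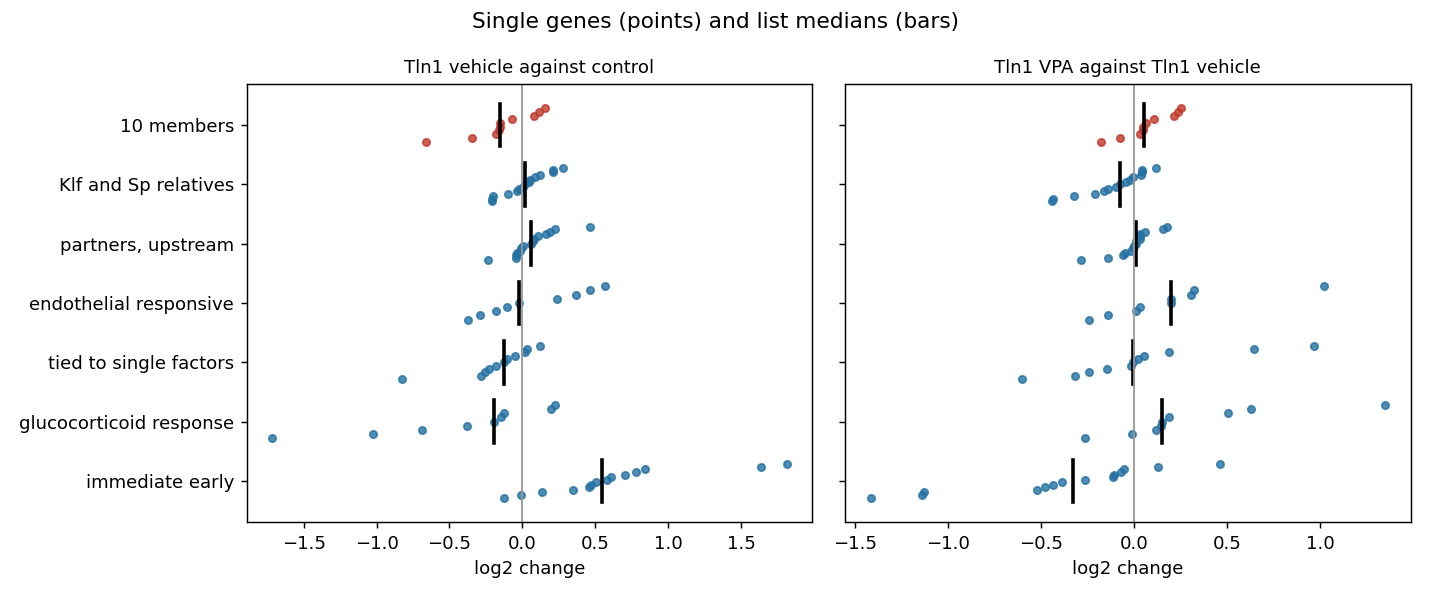
Log2 changes of single genes (points) with list medians (bars) for the 10 factors and 6 gene lists, in Tln1 vehicle against control and in Tln1 VPA against Tln1 vehicle. The 10 factors have medians of -0.15 and 0.06, and the immediate early genes 0.54 and -0.33.

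The profiles most like that of Klf15 over the 8 arrays were those of Gpc1, Bace1 and Zfp942. Likeness was the mean absolute difference after each gene's own mean was subtracted, which was 0.10, 0.14 and 0.15 for them and 0.36 for the median of 11089 genes. Gpc1 is a heparan sulfate proteoglycan of the cell surface. It read 7.09 and 7.05 on the control arrays, 6.55, 6.48 and 6.29 under vehicle and 6.37, 6.61 and 6.91 under VPA. Both controls were on top, as for Klf15. Genes named here were chosen for likeness on these same arrays, so a shared order and a small distance follow from the choice. For Klf5, which had the smallest p in Tln1 VPA against Tln1 vehicle, the nearest were Zdhhc21 (0.06), Mir15a (0.07) and Ablim1 (0.08), beside a median of 0.27.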

How the data were processed

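Biotin-labelled RNA of isolated glomeruli was measured on Affymetrix arrays, per the labels' protocols. The authors deposited log2 values from RMA, and limma is also named, per the submitters' processing notes; no version or genome build is given in the sources used here, nor which arrays were normalised together. Precision is limited by the number of arrays.

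Of 41345 probe sets, 23521 had 1 gene symbol, 1814 several and 16010 none, and the probe set of highest mean was kept per symbol. The 3 comparisons came from a single limma 3.58.1 model (R 4.3.3, lmFit and eBayes, two-sided) on the groups, tested on simulated data. P-values were adjusted by Benjamini-Hochberg over all genes, and genes were called below 0.05. Members, lists and array sets were chosen with earlier results of these data known. A change is printed with its SE where the arrays do not overlap or the unadjusted p is below 0.05, for members and for up to 4 genes per list and comparison. Values of Klf2, Klf4, Klf6, Klf9 and Klf10 outside that rule, or with a block or covariate, were chosen after they were seen. Vehicle and VPA arrays of the same number correlated in their deviations from the group means (r = 0.570, 0.609 and 0.787). Arrays of the same number in these groups also share an array set, so the correlation cannot show pairing, and the labels state none. Promoters are from RefSeq. Figures were drawn with matplotlib 3.10.9.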

Additional observations from a re-analysis of the deposited data

How the results depend on the processing

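No factor was called under any of 19 alternatives per comparison, so 57 of 57 counts of called factors stayed at 0. Of these 17 were listed beforehand: averaging the probe sets of a gene, quantile normalisation, median centring, genes above the median level, trended and robust eBayes, only the groups compared, array weights, the replicate block, the array set block and each array left out. The first array set alone and the Y-linked covariate were added after seeing the data. The smallest adjusted p of a factor over all of them was 0.221 by limma. The replicate block matches arrays by number. Against control it uses arrays 1 and 2 of each group, so that control 2, of the second set, is matched with first-set arrays. With it, 0 factors were called in each comparison, beside 52, 0 and 117 of all genes. Same-numbered control arrays correlated at r = 0.609 and -0.591 with vehicle and 0.593 and -0.496 with VPA, and no pairing with controls was assumed. Factors with an unadjusted p below 0.05 numbered 1, 0, 1 in the order of the text, beside 1.45%, 1.26% and 1.87% of all genes. They numbered 2, 0, 3 with the array set block and 5, 1, 5 with the Y-linked covariate. The share of all genes was not counted under the block or covariate, so those counts cannot be read as particular to the factors. Leaving out single arrays gave -0.80 to -0.52 for Klf15 in Tln1 vehicle against control, -0.76 to -0.41 in Tln1 VPA against control and 0.27 to 0.41 for Klf10 in the latter. Of 698 values of the 37 changes named by rule under these alternatives, 0 changed sign and 3 passed the threshold, all with the replicate block: Egr1 (1.71) and Zbtb16 (-1.87) in Tln1 vehicle against control and Vcam1 (1.08) in Tln1 VPA against control. The changes of factors outside that rule were less stable: of 27, the sign turned for 10 with the Y-linked covariate, 4 with the array set block, 3 in the first set alone and 3 with the replicate block. No detection calls were used here, so signal over background is unknown.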
